A study of Homo sapiens with 12 samples.

Results

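The genes described here are 32 targets of the transcription factor p53, taken by symbol from the deposited count table of 23615 genes. A member was kept where its mean over the 12 libraries was at least 0.5 CPM, that is, counts scaled to library size. Of the 32 listed genes, 31 passed, among 14851 genes of the table that did, and the same 31 were tested in each comparison. TRIM22, an antiviral factor, was left out at a mean of 0.0655 CPM and 21 counts in all. LIF, at 0.866 CPM, was the member just inside the limit.

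p53 is activated by DNA damage and other stress and switches on genes for growth arrest, DNA repair, redox control and cell death. One of its targets, MDM2, encodes the ubiquitin ligase that sends p53 to degradation, so that the pathway limits itself. HEK293T cells, a human embryonic kidney line, carry the SV40 large T antigen, a viral protein known to bind p53 and the retinoblastoma protein, as well as adenovirus early genes. Their transcripts were not analysed here, and protein was not measured.

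RNA sequencing was done on total RNA depleted of ribosomal RNA from HEK293T cells selected with puromycin after lentiviral transduction. One line expressed a hairpin against HuR (shHuR), the RNA-binding protein encoded by ELAVL1, and the other a control hairpin (shControl). Cells of each line were untreated, given 25 µM HNE(alkyne), a tagged version of the aldehyde 4-hydroxynonenal that forms when lipids oxidise, or given 225 µM H2O2. Exposure lasted 18 h, and there were 2 biological replicates in each of the 6 groups. By its title, the series asks what HuR does to gene expression when cells meet electrophiles and oxidants. Each line was 1 hairpin population, so an effect of the hairpin and any other difference between the populations cannot be told apart, and whether replicates were separate transductions is not given in the sources used here. A level in such a bulk library also cannot tell fewer expressing cells from less RNA per cell.

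Library totals lay between 24855946 and 29907256 counts. The 2 replicates of shControl with HNE differed most, with a chi-square per degree of freedom over genes of 22.6, against 3.02 to 10.9 in the other 5 groups. Replicate 2 of that group had the highest share of small RNA counts (1.30%, others from 0.661%) and the lowest scaling factor (0.965). ELAVL1 was lower in every shHuR library, at 71.3 ± 2.01 CPM against 93.1 ± 4.91 CPM (SD, n = 6 each), with a 2-sided exact permutation p of 0.00216. HMOX1, the heme oxygenase known to respond to electrophiles, went from 9.34 to 11.1 CPM in the 4 untreated libraries to 25.0 to 31.7 CPM in the 4 HNE libraries. With H2O2 it lay between 9.36 and 11.7 CPM, near the untreated range. Of 7 markers of HEK293 cells, 6 were above 1 CPM in every library, while PAX2 reached at most 0.491 CPM. The 6 markers of leukocytes, hepatocytes, erythroid cells, fibroblasts and endothelium reached at most 0.227 CPM, and HBB was at 0 in all 12.

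Levels between genes were compared per length, in the authors' FPKM (fragments scaled to transcript length and library size). CCNG1, a cyclin that recruits a phosphatase to MDM2, had the highest mean at 146 FPKM. BAX, the pore-forming protein of the outer mitochondrial membrane, followed at 67.2 FPKM and PMAIP1, the BH3-only protein NOXA, at 60.6 FPKM. TRIAP1 was at 51.4 FPKM and MDM2 at 47.4 FPKM. Other genes of the same roles were lower, since the apoptosome scaffold APAF1 was at 9.95 FPKM, the BH3-only gene BBC3 at 8.29 FPKM and the phosphatase gene PPM1D at 7.54 FPKM.

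In the middle of the range were AEN at 33.3 FPKM, XPC at 22.9, GADD45A at 22.8, TNFRSF10B at 17.4, SESN1 at 16.8, RRM2B at 14.3 and FDXR at 12.3 FPKM. APAF1, PHLDA3, BBC3, DDB2, POLH, PPM1D, NINJ1, KITLG and BTG2 lay between 5.67 and 9.95 FPKM. TP53I3, TP53INP1, ZMAT3, ACER2, PLK2, FAS, SPATA18 and PLK3 lay between 1.01 and 2.31 FPKM, DRAM1 was at 0.552 and LIF at 0.230 FPKM. The death receptors differed in level, since TNFRSF10B, the TRAIL receptor DR5, was at 17.4 FPKM and FAS at 1.41 FPKM.

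**Figure D1:**
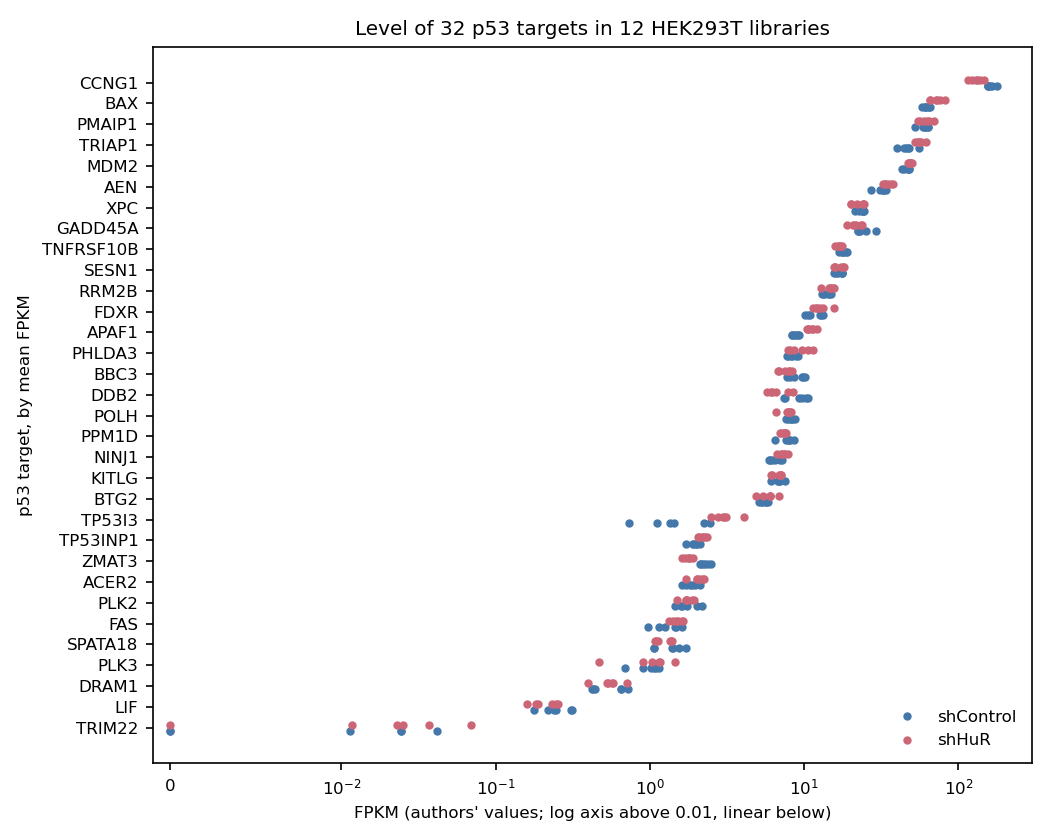
Level of each of the 32 p53 targets, in the authors' FPKM on a log axis that is linear below 0.01, with 1 point per library (6 shControl and 6 shHuR). Means run from 146 FPKM for CCNG1 to 0.0223 FPKM for TRIM22, and TP53I3 has its shHuR points above its shControl points.

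p53 binds DNA as a tetramer at pairs of a 10-base consensus, the p53 decamer, and some targets hold such a pair near their start. RefSeq promoters (GRCh38.p14, 250 bases before to 50 after a gene's start) were listed for 25 of the 32 members, in 36 entries. No entry was listed for TRIM22, TP53INP1, TNFRSF10B, PHLDA3, GADD45A, RRM2B and LIF. An exact decamer, searched on both strands, was found in 6 of the 36 member promoters (16.7%), against 2329 of all 35116 promoters (6.63%). A pair of exact decamers at most 13 bases apart was in 1 member promoter, that of DDB2, against 10 of the 35116 (0.0285%). These are matches of letters in a window and are not evidence of binding in these cells. The 6 stretches are shown because they hold the first exact match, or for DDB2 the pair, in each member promoter that had one. Any further match outside a stretch is not shown. Decamers are in capitals, read 5′ to 3′ on the strand of the gene.
DDB2: gtttGAACAAGCCCtGGGCATGTTTggcg
AEN: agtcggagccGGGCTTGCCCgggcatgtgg
FAS: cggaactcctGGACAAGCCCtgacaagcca
FDXR: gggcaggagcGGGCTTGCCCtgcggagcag
PLK2: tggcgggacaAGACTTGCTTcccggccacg
SESN1: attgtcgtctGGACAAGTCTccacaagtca
The DDB2 stretch lies at chr11:47214975-47215003 on the plus strand, with the decamers 1 base apart and covering bases 6 to 26 from the listed start. In the others the decamer lies upstream of the listed start, though the FDXR stretch around it runs past the start. The AEN stretch is at chr15:88621296-88621325 and that of FAS at chr10:88991299-88991328, both on the plus strand. FDXR at chr17:74872986-74873015, PLK2 at chr5:58460199-58460228 and SESN1 at chr6:109009018-109009047 are on the minus strand.

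Between the lines, averaged over the treatments, p53 targets moved in both directions. Of 31 members, 10 passed an adjusted p of 0.05 (edgeR, Benjamini-Hochberg), beside 29.9% of all 16005 genes tested. Of these, 5 were higher in shHuR, where the background was 14.1%, and 5 lower, where it was 15.9%, so the share of members called was close to that of all genes. Their median log2 difference was 0.015, and that of all genes was -0.0018. With library size alone in place of TMM scaling, 6 of the 9 members called were higher and 3 lower. The 5 that were higher were TP53I3, APAF1, TRIAP1, BAX and AEN, and the 5 that were lower were CCNG1, ZMAT3, DDB2, BBC3 and GADD45A. Of the 11 members tested in the cell death group, the largest of the list, 5 were higher, 1 (BBC3) was lower and 5 were not called, and the group was not tested as such.

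TP53I3 (PIG3), a quinone oxidoreductase-like protein linked to reactive oxygen species and death, had the widest difference of the 31. It ran from 1.10 to 2.62 CPM (median 2.04) in the 6 shControl libraries and from 3.05 to 5.21 CPM (median 3.81) in the 6 shHuR libraries, with no overlap. Means were 2.02 ± 0.565 and 3.88 ± 0.800 CPM (SD, n = 6), a log2 difference of 0.95 (SE 0.181, edgeR adjusted p = 0.000791). The gene is low, with 960 counts over all 12 libraries.

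APAF1, the scaffold of the apoptosome that activates caspase-9, was higher in every shHuR library. Its values ran from 59.1 to 66.2 CPM (median 61.9) in shControl and from 74.5 to 86.3 CPM (median 78.0) in shHuR. The means of 62.3 ± 2.96 and 78.8 ± 4.51 CPM (SD, n = 6) gave a log2 difference of 0.34 (SE 0.0466, edgeR adjusted p = 3.90e-05), the smallest adjusted p among the members. APAF1 and TP53I3 were the 2 members that did not overlap between the lines and were higher in shHuR, beside 5.25% of all genes.

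Smaller rises were seen for the other 3 genes of cell death, and their lines overlapped. BAX lay between 36.3 and 40.3 CPM (median 38.6) in shControl and between 39.9 and 49.9 CPM (median 44.4) in shHuR, a log2 difference of 0.21 (SE 0.0491, edgeR adjusted p = 0.00427). TRIAP1, an inhibitor of apoptosome activation that carries phospholipids in mitochondria, lay between 39.8 and 55.5 CPM (median 46.7) and between 52.3 and 61.9 CPM (median 55.1), a log2 difference of 0.26 (SE 0.0662, edgeR adjusted p = 0.00742). AEN, a nuclease of apoptotic DNA breakdown, lay between 81.1 and 101 CPM (median 96.7) and between 96.7 and 112 CPM (median 102), a log2 difference of 0.13 (SE 0.0481, edgeR adjusted p = 0.0494). TRIAP1 thus counts in the cell death list although it is known to restrain that process.

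BBC3 (PUMA), a BH3-only protein that frees BAX, went the other way. It lay between 12.1 and 15.0 CPM (median 13.7) in shControl and between 10.3 and 12.8 CPM (median 11.7) in shHuR, a log2 difference of -0.23 (SE 0.0832, edgeR adjusted p = 0.0473). The ranges overlapped. PMAIP1, the other BH3-only protein, lay between 93.2 and 113 CPM (median 107) and between 96.9 and 123 CPM (median 108), and did not pass (log2 difference 0.025, 95% interval -0.093 to 0.14, edgeR adjusted p = 0.782). The death receptors FAS and TNFRSF10B, the Akt repressor PHLDA3 and DRAM1, a lysosomal protein of autophagy, did not pass either.

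Among genes that act back on p53, CCNG1 fell by 0.32 on the log2 scale (SE 0.0458, edgeR adjusted p = 6.35e-05). Its CPM ran from 348 to 399 (median 359.6) in shControl and from 258 to 329.7 (median 293) in shHuR, with no overlap. MDM2, the canonical feedback target, differed little in the same libraries. It ran from 320.2 to 357 CPM (median 351) in shControl and from 351 to 369 CPM (median 361) in shHuR. The log2 difference of 0.067 did not pass (95% interval -0.011 to 0.15, edgeR adjusted p = 0.185). PPM1D, a phosphatase that turns off the damage response, and TP53INP1, which promotes phosphorylation of p53, did not pass (edgeR adjusted p = 0.237 and 0.0677).

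ZMAT3, an RNA-binding zinc finger protein that controls splicing and growth, was lower in every shHuR library. It ran from 18.9 to 22.3 CPM (median 20.3) in shControl and from 14.6 to 17.2 CPM (median 16.2) in shHuR, a log2 difference of -0.36 (SE 0.0616, edgeR adjusted p = 0.000300). CCNG1 and ZMAT3 were the 2 members that did not overlap and were lower in shHuR, beside 6.84% of all genes. GADD45A, a growth arrest protein that binds PCNA, ran from 26.3 to 35.0 CPM (median 27.2) and from 22.4 to 28.5 CPM (median 25.3), with a log2 difference of -0.16 (SE 0.0558, edgeR adjusted p = 0.0429) and overlapping ranges. BTG2, which slows the cell cycle by way of mRNA turnover, and the polo-like kinases PLK2 and PLK3 did not pass.

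DDB2, the subunit of the damage sensor that recognises ultraviolet lesions for nucleotide excision repair, was lower in shHuR within each treatment. Untreated shControl libraries had 17.4 and 17.9 CPM and untreated shHuR libraries 13.1 and 14.3 CPM. Over all treatments the means were 15.4 ± 2.29 and 11.4 ± 1.83 CPM (SD, n = 6), a log2 difference of -0.43 (SE 0.0669, edgeR adjusted p = 0.000129). The 6 and 6 values overlapped, as the shControl libraries with HNE (12.7 and 12.6 CPM) lay below the untreated shHuR libraries. XPC, the other lesion sensor of the pathway, POLH, a polymerase that copies past lesions, and RRM2B, a subunit of ribonucleotide reductase, did not pass.

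SESN1, a sestrin that dampens growth signalling and peroxide stress, lay between 45.6 and 50.3 CPM (median 48.5) in shControl and between 44.5 and 50.8 CPM (median 47.3) in shHuR. Its log2 difference was -0.021 (95% interval -0.12 to 0.078, edgeR adjusted p = 0.785). The other 3 genes of redox, mitochondria and lipids are FDXR, a reductase of mitochondrial electron transfer, SPATA18, which acts in mitochondrial quality control, and ACER2, a ceramidase. The 3 secreted or surface genes are KITLG, the ligand of the KIT receptor, the cytokine LIF and NINJ1, which ruptures the plasma membrane in dying cells. None of these genes passed in this edgeR comparison. At an unadjusted p under 0.05, 12 of the 31 members passed in all, the 10 above with TP53INP1 and TNFRSF10B, beside 40.9% of all genes. DESeq2 called the same 10.

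The 10 line calls were not equally firm. When each library was left out in turn, APAF1, CCNG1, DDB2, ZMAT3, TP53I3, BAX and TRIAP1 were called each time. AEN was no longer called without any of 9 libraries, all but shHuR H2O2 replicate 2, shControl H2O2 replicate 1 and shControl HNE replicate 2 (edgeR adjusted p up to 0.102). BBC3 was no longer called without any of 9, all but shHuR HNE replicate 2, shControl HNE replicate 1 and shControl untreated replicate 2 (up to 0.124). GADD45A was no longer called without any of 9, all but shHuR untreated replicate 1, shControl H2O2 replicate 1 and shControl HNE replicate 1 (up to 0.106).

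**Figure D2:**
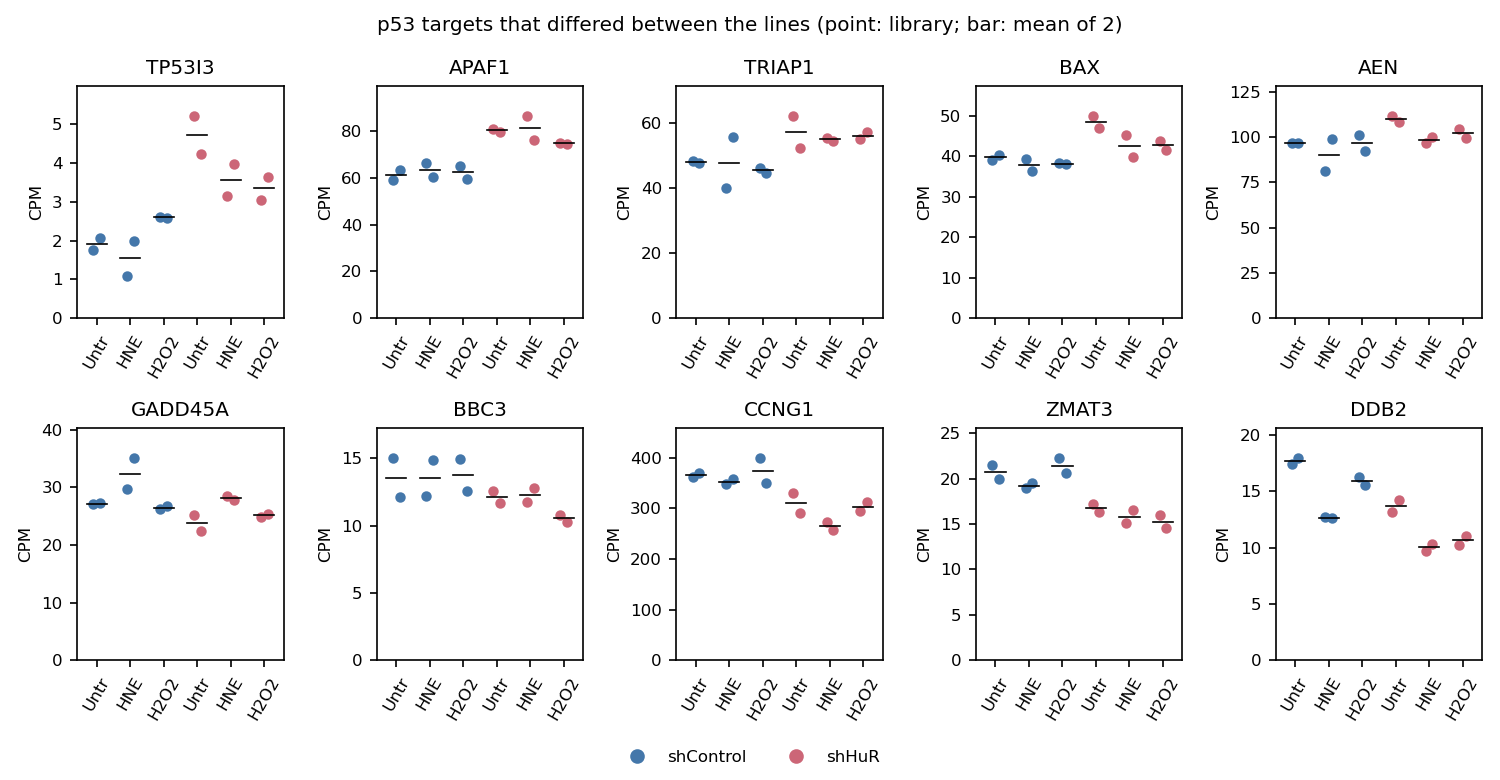
CPM of the 10 p53 targets called between the lines, with 1 panel per gene, 1 point per library and a bar at the mean of the 2 libraries of each group (Untr, untreated). In TP53I3, APAF1, CCNG1 and ZMAT3 the shControl and shHuR points do not overlap, and DDB2 steps down with HNE in both lines.

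Several of these genes share exon sequence with a neighbour, mostly on the opposite strand. In GENCODE release 29 on GRCh38, 10 of the 32 members overlap an exon of another gene whose symbol is in the count table. Genes without a symbol in that table were not considered. The libraries were strand-specific per the labels, but whether counting used strand is not given in the sources used here. For TP53I3 (chromosome 2, 24077433 to 24085861, minus strand) the neighbour is FAM228B, at 1.65 to 2.39 CPM. FAM228B did not differ between the lines by the test (log2 difference -0.024, edgeR adjusted p = 0.927). Its part in the low TP53I3 values was not tested. For APAF1 (chromosome 12, 98645141 to 98735433, plus strand) the neighbour is ANKS1B, at 6.25 to 8.51 CPM and also not called (log2 difference 0.19, edgeR adjusted p = 0.112). XPC (minus strand of chromosome 3) overlaps LSM3, which ran from 93.3 to 115 CPM in shControl and from 117 to 135 CPM in shHuR and was called (log2 difference 0.28, edgeR adjusted p = 0.000606). Its part in the XPC values was not tested. BBC3 overlaps the microRNA genes MIR3190 and MIR3191. DDB2, CCNG1 and ZMAT3 have no such overlap with a gene of the count table.

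Within a single treatment, fewer members passed. In untreated cells 2 of 31 did, APAF1 (log2 difference 0.39, edgeR adjusted p = 0.0105) and TP53I3 (1.29, edgeR adjusted p = 0.0112), beside 7.98% of all genes (3.5% higher and 4.48% lower). For TP53I3 the untreated libraries had 1.76 and 2.08 CPM in shControl and 5.21 and 4.24 CPM in shHuR. BAX was at 39.0 and 40.3 CPM against 49.9 and 47.1 CPM, and just missed the threshold (log2 difference 0.29, edgeR adjusted p = 0.0521), as did DDB2 (-0.36, edgeR adjusted p = 0.0526). Without any 1 of the 4 untreated libraries APAF1 was not called (adjusted p 0.0527 to 0.120). TP53I3 was not called without shHuR replicate 1 or either shControl replicate (0.0644 to 0.106). Neither was lost without a treated library.

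Under HNE the lines differed in 3 of 31 members, beside 8.27% of all genes (3.24% higher and 5.04% lower). APAF1 (log2 difference 0.36, edgeR adjusted p = 0.0167) and TP53I3 (1.22, edgeR adjusted p = 0.0185) were higher in shHuR and CCNG1 was lower (-0.41, edgeR adjusted p = 0.00684). For CCNG1 the HNE libraries had 348 and 358 CPM in shControl and 273 and 258 CPM in shHuR. The TP53I3 value rested partly on shControl HNE replicate 1, at 1.10 CPM beside 2.00 CPM in replicate 2, and was 0.84 without it (adjusted p = 0.0773). TP53I3 was also lost without either shHuR HNE replicate (0.0584 and 0.181), and CCNG1 without shHuR HNE replicate 2 (0.109). APAF1 was lost without shHuR HNE replicate 1 or 2 or shControl HNE replicate 2 (0.0506 to 0.195).

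Under H2O2 the lines again differed in 3 of 31 members, all 3 lower in shHuR, beside 7.19% of all genes (2.52% higher and 4.67% lower). DDB2 was at 16.3 and 15.6 CPM in shControl and 10.2 and 11.0 CPM in shHuR (log2 difference -0.58, edgeR adjusted p = 0.00588). ZMAT3 was at 22.3 and 20.6 CPM against 16.0 and 14.6 CPM (-0.49, edgeR adjusted p = 0.0113). CCNG1 was at 399 and 349.6 CPM against 295 and 312 CPM (-0.30, edgeR adjusted p = 0.0322). Each of these calls was lost when certain libraries were left out. DDB2 was lost without shHuR H2O2 replicate 1 (0.0827), and ZMAT3 without either shHuR H2O2 replicate or shControl H2O2 replicate 1 (0.0514 to 0.134). CCNG1 was lost without any of 7 libraries, namely both shHuR H2O2, both shHuR HNE, both shControl untreated and shControl H2O2 replicate 1 (0.0556 to 0.264).

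After 18 h of HNE, 1 p53 target passed the test over both lines, and it fell. Of 31 members this was DDB2 alone, beside 0.247% of all 15780 genes (0.101% higher and 0.146% lower). The fall was seen in each line. In shControl, DDB2 went from 17.4 and 17.9 CPM untreated to 12.7 and 12.6 CPM with HNE, and in shHuR from 13.1 and 14.3 CPM to 9.67 and 10.4 CPM. In both lines each HNE library was below each untreated one. DDB2 fell by 0.47 on the log2 scale (SE 0.0803, 95% interval -0.64 to -0.29, edgeR adjusted p = 0.0344), to 72.3% of the untreated mean. Tested within a line it did not pass (log2 change -0.48 in shControl, edgeR adjusted p = 0.179, and -0.45 in shHuR, edgeR adjusted p = 0.167). The difference of the 2 changes was 0.028 (95% interval -0.30 to 0.36).

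The DDB2 call stands near the threshold. Without shHuR HNE replicate 1 or 2, shHuR untreated replicate 1 or 2, or shControl untreated replicate 1 or 2, it was lost, with edgeR adjusted p from 0.0730 to 0.157. The log2 change stayed between -0.49 and -0.45 in every such fit. It was called without shControl HNE replicate 1 (-0.47, edgeR adjusted p = 0.0459) and without replicate 2 (-0.46, edgeR adjusted p = 0.0207), the 2 libraries that differed most from each other. The limma fits with a pseudocount of 1 gave adjusted p = 0.0583 with a filter and 0.165 without.

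XPC and GADD45A came next, and neither passed. XPC had 85.4 and 86.7 CPM untreated and 76.6 and 81.7 CPM with HNE in shControl, and 86.6 and 85.7 against 71.9 and 71.8 CPM in shHuR. Each HNE library was thus below each untreated library (log2 change -0.19, SE 0.0547, edgeR adjusted p = 0.200). GADD45A had 27.1 and 27.2 CPM untreated and 29.8 and 35.0 CPM with HNE in shControl, and 25.2 and 22.4 against 28.5 and 27.9 CPM in shHuR. All 4 HNE libraries were above the 4 untreated ones (log2 change 0.25, SE 0.0733, edgeR adjusted p = 0.210). Without shControl HNE replicate 2, XPC was called (log2 change -0.22, edgeR adjusted p = 0.0378) and GADD45A was not (0.20, edgeR adjusted p = 0.183). Without replicate 1 neither was (edgeR adjusted p = 0.203 and 0.119).

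In both lines, and in the same direction, groups did not overlap for 1 member that was higher with HNE, GADD45A, beside 6.17% of all genes. They did not overlap for 5 that were lower (DDB2, XPC, POLH, CCNG1 and PPM1D), beside 6.32%. At an unadjusted p under 0.05, 5 of 31 members passed (DDB2, XPC, GADD45A, CCNG1 and POLH), beside 12.3% of all genes. The median log2 change of the members was -0.041 and that of all genes 0.00022. Below 0 were 22 of the 31, beside 7875 of all 15780 genes.

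The apoptotic and feedback genes gave no call with HNE in edgeR. MDM2 was at 353 and 354 CPM untreated and 357 and 320.2 CPM with HNE in shControl, and at 369 and 353 against 360.4 and 351 CPM in shHuR (log2 change -0.041, 95% interval -0.15 to 0.068). BBC3 changed by 0.0092 (95% interval -0.20 to 0.22) and PMAIP1 by 0.053 (95% interval -0.090 to 0.20). For 26 of the 31 members the 95% interval of the change lay within 0.5 log2 units of 0. The 5 that reached further were DDB2, DRAM1, LIF, PLK3 and TP53I3.

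With H2O2 no p53 target passed. In edgeR 0 of 31 members did over both lines, and 0% of all 15801 genes, so the share of members called was that of all genes. At an unadjusted p under 0.05 there were 3 members and 861 genes (5.45%), and DESeq2 and limma also called 0 members. The HNE and H2O2 comparisons share the 4 untreated libraries. Over the members, the median log2 change was -0.048 and that of all genes -0.00050. Below 0 were 24 of the 31, beside 7935 of all 15801 genes. Taken by line, 24 of the 31 were below 0 in shHuR (median -0.091) and 15 in shControl (median 0.0020). The counts for all 16005 genes were 8102 and 7887.

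DDB2 again had the smallest p, with a log2 change of -0.25 (SE 0.0827, edgeR adjusted p = 0.900). It was at 16.3 and 15.6 CPM with H2O2 in shControl and at 10.2 and 11.0 CPM in shHuR. These values were below the untreated values of the same line. BAX was at 38.3 and 38.0 CPM with H2O2 against 39.0 and 40.3 CPM untreated in shControl, and at 43.7 and 41.6 against 49.9 and 47.1 CPM in shHuR (log2 change -0.12, edgeR adjusted p = 0.900). DDB2 and BAX were the 2 members that were lower with H2O2 in both lines without overlap, beside 3.18% of all genes, and 0 members were higher in this way, beside 3% of all genes.

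PLK3, a polo-like kinase of the stress response, was at 1.52 and 2.55 CPM with H2O2 against 2.43 and 2.25 CPM untreated in shControl. In shHuR it was at 1.98 and 1.03 against 3.22 and 2.51 CPM (log2 change over both lines -0.55, SE 0.254, edgeR adjusted p = 0.900). In shControl the H2O2 replicates lay on either side of the untreated ones, in shHuR both lay below, and the gene had 724 counts in all. MDM2 stayed between 331 and 368 CPM in the 4 H2O2 libraries (log2 change -0.020, 95% interval -0.11 to 0.069). For GADD45A the change was 0.023 (95% interval -0.12 to 0.16), for SESN1 -0.089 (95% interval -0.20 to 0.026) and for PMAIP1 -0.063 (95% interval -0.20 to 0.076). In 28 of the 31 members the 95% interval lay within 0.5 log2 units of 0, all but DRAM1, LIF and PLK3.

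**Figure D3:**
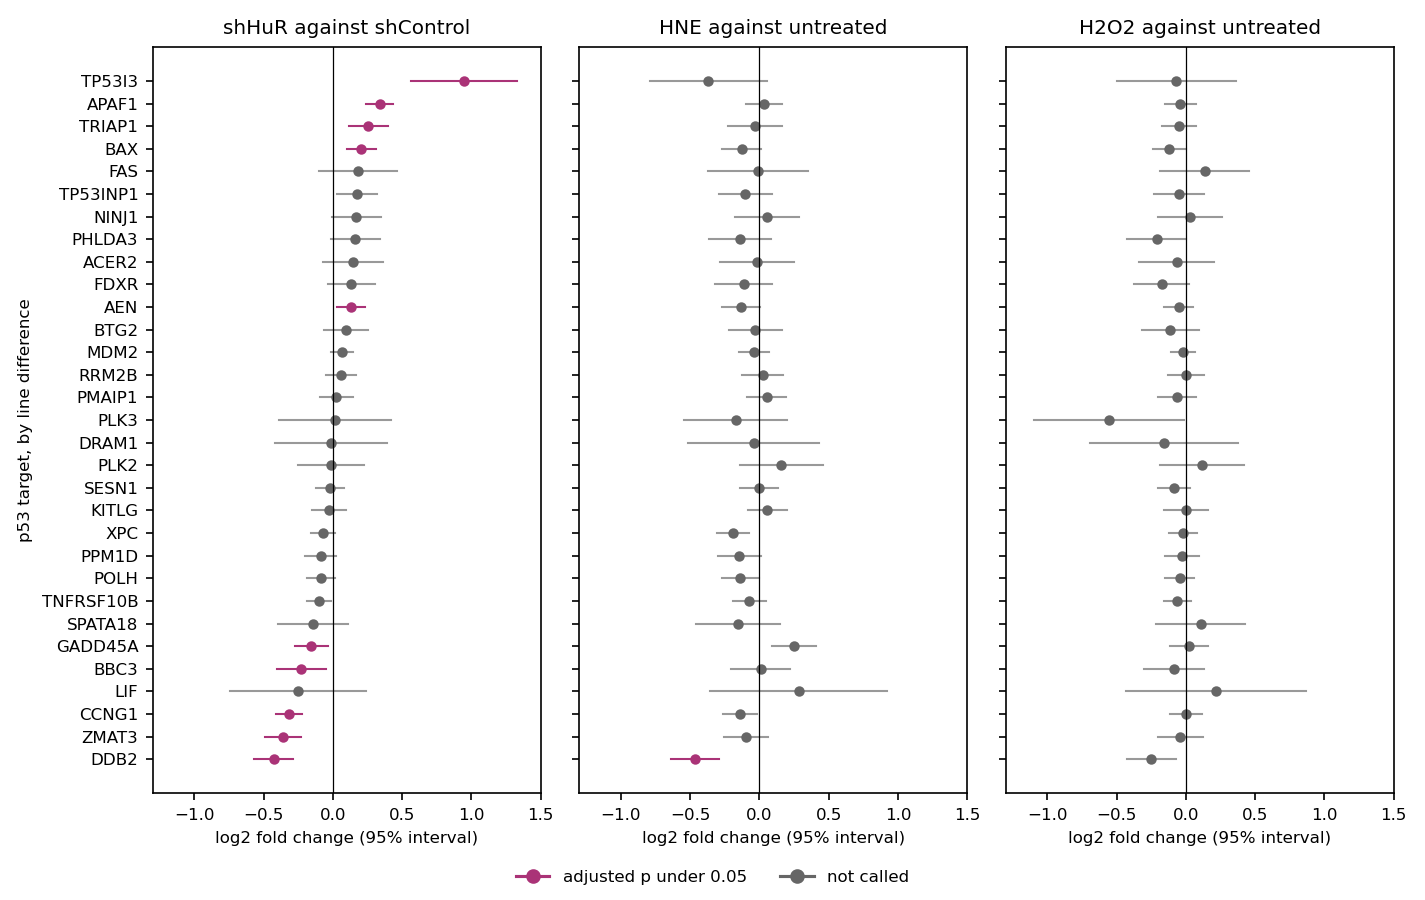
log2 fold change of the 31 tested p53 targets with its 95% interval, for shHuR against shControl, HNE against untreated and H2O2 against untreated, with members called by edgeR in colour. The line panel has 10 called members, 5 on each side of 0, the HNE panel has DDB2 alone, and the H2O2 panel has none.

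Within a line, HNE or H2O2 gave 0 called members of 31 in edgeR in each of the 4 comparisons, beside 0.0187% of all genes for HNE in shControl, 0.075% for HNE in shHuR (0.0375% in each direction) and 0% for H2O2 in either. H2O2 in shHuR had 5 members at an unadjusted p under 0.05, all lower (DDB2, PHLDA3, PLK3, FDXR and BAX), with adjusted p of 1.00, beside 3.37% of all genes. H2O2 in shControl had 0, beside 4.34%. PHLDA3, a repressor of Akt signalling, was at 15.3 and 14.3 CPM untreated and 11.6 and 10.8 CPM with H2O2 in shHuR, and at 12.0 and 10.5 against 11.1 and 11.2 CPM in shControl. Whether the lines responded differently was tested directly. The interaction of line and treatment called 0 members for HNE and 0 for H2O2 in edgeR (0% of all genes in each), with 1 member (RRM2B) and 2 members (TP53I3 and SPATA18) at an unadjusted p under 0.05, beside 6.73% and 3.62% of all genes.

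TP53I3 showed the widest such difference. With H2O2 it was at 2.62 and 2.59 CPM in shControl, above the untreated 1.76 and 2.08 CPM, and at 3.05 and 3.65 CPM in shHuR, below the untreated 5.21 and 4.24 CPM. The interaction was -0.93 on the log2 scale (SE 0.380, edgeR adjusted p = 1.00). The CPM values lay in opposite directions in the 2 lines, but neither the change within a line nor the difference between lines passed. In the authors' FPKM the shHuR libraries overlapped, at 2.96 and 3.10 with H2O2 against 4.07 and 3.04 untreated. The shControl libraries did not, at 2.46 and 2.26 FPKM against 1.11 and 1.44 FPKM.

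**Figure D4:**
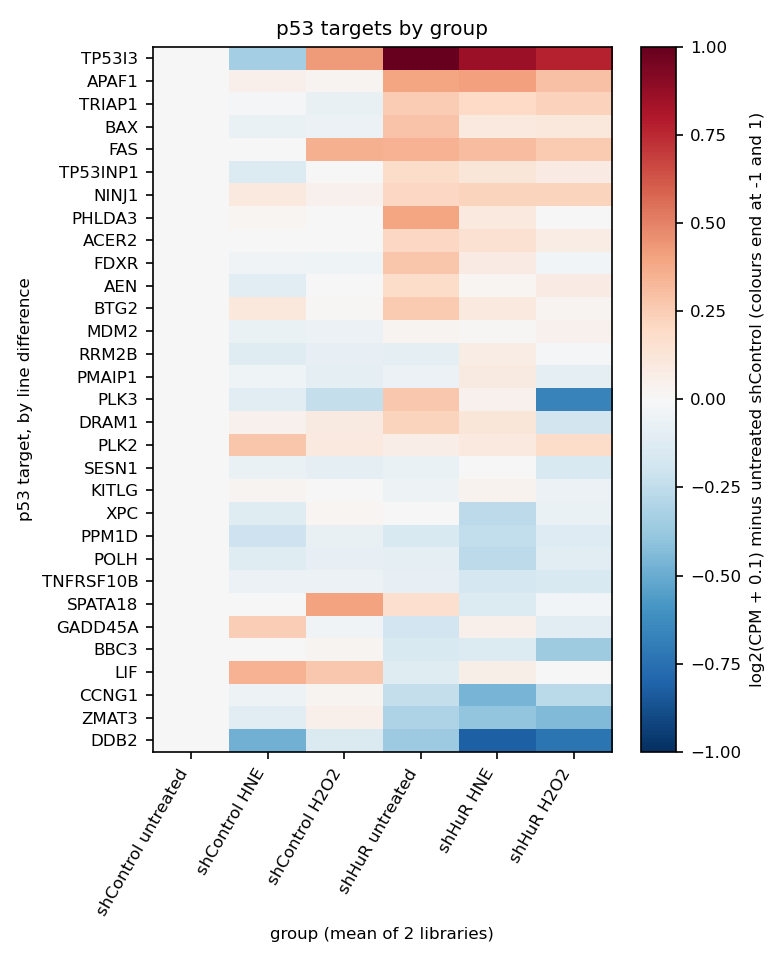
Mean level of the 31 tested p53 targets in the 6 groups, as log2(CPM + 0.1) minus the untreated shControl mean, each cell the mean of 2 libraries. DDB2 is below 0 in all 5 other groups, TP53I3 and APAF1 are above 0 in the 3 shHuR groups, and the MDM2 row stays close to 0.

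Genes around the pathway were read from 3 further lists. Of 24 tested genes of the p53 family and its regulators, 6 were called between the lines, beside 29.9% of all genes, 4 higher in shHuR and 2 lower. USP10, a deubiquitinase of p53, was higher (log2 difference 0.43, edgeR adjusted p = 5.60e-06), as was the kinase HIPK2 (0.39, edgeR adjusted p = 0.00148). HUWE1 was also called higher (log2 difference 0.24). MDM4, the partner of MDM2 that blocks p53, ran from 224.7 to 257 CPM (median 249.6) in shControl and from 196 to 209.8 CPM (median 198) in shHuR and was lower (log2 difference -0.29, edgeR adjusted p = 3.84e-05). CHEK1, a checkpoint kinase, was also lower (-0.33, edgeR adjusted p = 3.85e-06).

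In a second list of 36 tested genes that have been reported as p53 targets, 18 were called between the lines, beside 29.9% of all genes, 14 of them higher (all genes 14.1%) and 4 lower (15.9%). Their median log2 difference was 0.13, and that of all genes -0.0018. CDKN1A, the cell-cycle inhibitor p21, ran from 8.38 to 9.81 CPM (median 9.12) in shControl and from 12.1 to 15.3 CPM (median 14.0) in shHuR, without overlap. Its log2 difference was 0.60 (SE 0.0695, edgeR adjusted p = 6.81e-06). SERTAD1 (0.83, edgeR adjusted p = 3.02e-05) and DUSP14 (0.50, edgeR adjusted p = 1.46e-05) were also higher. PIDD (now PIDD1), a scaffold of caspase-2 activation, was lower (-0.70, edgeR adjusted p = 3.91e-06), as were ANKRA2 (-0.47, edgeR adjusted p = 7.16e-05) and PERP, a desmosomal protein (-0.38, edgeR adjusted p = 3.90e-05). Whether this list differs from other genes was not tested.

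Of 18 cell-cycle genes that p53 is reported to repress, 6 were called between the lines (33.3%), close to the 29.9% of all genes. CDC20 (0.35, edgeR adjusted p = 0.000119), MKI67 (0.45, edgeR adjusted p = 0.000399), AURKB and CCNB1 were higher in shHuR (AURKB not without shControl untreated replicate 1, edgeR adjusted p = 0.0657), and PLK4 (-0.30, edgeR adjusted p = 0.000367) and CENPF (-0.20, edgeR adjusted p = 0.000787) lower. With HNE, none of the 3 lists had a gene called in edgeR. At an unadjusted p under 0.05 there were 2 of 24 regulators, 10 of 36 other targets and 5 of 18 cell-cycle genes, beside 12.3% of all genes. With H2O2 there were again 0 calls in edgeR, with 1 of 24, 2 of 35 and 4 of 18 at an unadjusted p under 0.05, beside 5.45% of all genes. Above 0 with H2O2 were 16 of 24 regulators, 14 of 35 other targets and 18 of 18 cell-cycle genes, beside 7866 of all 15801 genes. The median log2 change of the cell-cycle genes was 0.069, and whether that list differs from other genes was not tested. CDKN1A changed by 0.069 with HNE (95% interval -0.12 to 0.25) and by -0.067 with H2O2 (95% interval -0.26 to 0.12).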

How the data were processed

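RNA of 12 libraries was analysed from the 2 tables the authors deposited, 1 of estimated counts per gene symbol and 1 of FPKM values, scaled by the authors to length and library size. Per the submitters' processing notes, the tools were cutadapt 1.8, TopHat2 2.1, Bowtie2 2.2, Cufflinks 2.2, Cuffnorm and Cuffdiff, with GRCh37 and hg19 as builds. Of the count values 2.25% were not whole, none of them in a member, and counts were rounded. Genes were filtered with filterByExpr (minimum count 10) in edgeR 4.0.16, scaled with TMM (factors 0.965 to 1.03) and tested with its quasi-likelihood F-test with Benjamini-Hochberg adjustment over all genes (threshold 0.05). Line was tested over 12 libraries with treatment as a covariate, HNE and H2O2 over 8 with line as a covariate, and other comparisons on 6 group means. SE is the log2 fold change divided by the square root of F, and intervals are 95%. CPM uses scaled library sizes, and errors are SD. P-values measure the spread between these libraries. The code was tested on simulated data.

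The members and gene lists were chosen with earlier results of these data known. Values per library are given for MDM2, BAX, BBC3, PMAIP1, GADD45A and SESN1, for members called in any comparison and for the 3 with the smallest p in each average comparison. From other lists at most 3 called genes in each direction were named. PHLDA3, POLH, TP53INP1, AURKB, CCNB1 and others outside this rule were named after their values were seen. COP1, TIGAR and PIDD1 were looked up by their older symbols. Alternatives were DESeq2 1.42.0, other scalings and filters, limma 3.58.1 on log2(FPKM + 1) and log2(FPKM + 0.1), which understates changes of low genes, the replicate number as a block, fits to the 2 groups at issue, and fits without 1 library in turn.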

Additional observations from a re-analysis of the deposited data

Results flagged for a closer look

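In 62 sets of 6 libraries (each tested member in each line), 2 had a library far from the other 5, past the limit of 0.625 for its gap as a share of the range. Chance gives about 1 in 20. PMAIP1 was at 93.2 CPM in shControl H2O2 replicate 2, with the other shControl libraries between 106 and 113 CPM (gap share 0.636). POLH was at 54.9 CPM in shHuR HNE replicate 2, with the other shHuR libraries between 64.6 and 68.3 CPM (gap share 0.723). POLH is among the 5 members whose HNE libraries were all below the untreated ones in each line.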

How the results depend on the processing

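With 2 libraries a group, small changes can be missed. The 10 line calls over all treatments became 7 to 11 under the alternatives, and H2O2 called 0 members in every fit. For HNE over both lines, the limma fits on log2(FPKM + 1) with and without a filter called 0, and leaving out a library gave 0 to 2. In shControl alone HNE gave 0 to 2, the 2 without shControl HNE replicate 1. Line calls in untreated cells rose from 2 to 4 with DESeq2, without a filter, with a mean CPM of at least 1 and in both filtered limma fits, and were 0 to 6 with a library left out (6 without either shControl HNE replicate). Under H2O2 they were 5 without a filter, 1 in each limma fit and 0 to 5 with a library left out. Under HNE they were 1 with the compared groups alone and 0 to 4 with a library left out. The cause was not tested.

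Whether the replicate numbers pair the libraries cannot be told from these values. Deviations of same-numbered libraries correlated above 0.1 in 2 of 15 group pairs, over a range of -0.107 to 0.129. With the replicate number as a block, DDB2 lost its HNE call, leaving 0, and 7 line calls were made over all treatments.

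Small differences changed sign. BBC3 with HNE was -0.0065 with library size alone, -0.014 in both limma fits on log2(FPKM + 1) and -0.015 on log2(FPKM + 0.1), and -0.050 to 0.076 with a library left out. SESN1 between the lines was 0.00059 with library size alone and -0.045 to 0.0064 with a library left out. With a library left out, SESN1 with HNE was -0.050 to 0.034, PMAIP1 with HNE -0.014 to 0.082 and between the lines -0.0086 to 0.068, GADD45A with H2O2 -0.021 to 0.042, and MDM2 with H2O2 -0.039 to 0.0027.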
